A study of Mus musculus with 11 samples.

Results

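The genes described here are the core of the NRF2 antioxidant response in mouse colon after imatinib: Nfe2l2, which encodes the transcription factor NRF2, its inhibitor Keap1, and the target genes Gclc, Gclm, Nqo1, Hmox1, Txnrd1, Srxn1, Gsr and G6pdx. The rule names these 10 genes, and a gene was measured where a probe set of the Affymetrix mouse 430 2.0 array was annotated to that gene symbol alone. By this rule 9 of the 10 genes had a value, from 19 of the 34945 probe sets with 1 symbol, and these 9 were among 18193 genes tested. G6pdx was not analysed here. No member probe set was shared with another gene.

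The series holds 11 arrays of total RNA from whole colon of adult C57BL/6 mice, with no allele or transgene named. The groups were colon 3 h after imatinib (n = 4), colon 12 h after imatinib (n = 4) and control colon taken before imatinib (n = 3). Imatinib is an inhibitor of the ABL, KIT and PDGF receptor tyrosine kinases, and the study's title places the work in EphB and Abl signalling in intestinal tumour formation. The labels give neither dose nor a vehicle arm, and they do not say whether replicates were separate mice, and the p-values then describe only how these arrays vary, which may be technical.

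NRF2 is held at a low level by KEAP1, which hands it to a ubiquitin ligase. Oxidants and electrophiles modify KEAP1, NRF2 then accumulates, pairs with a small MAF protein and binds antioxidant response elements, from which the repressor BACH1 can be displaced. The targets make glutathione, keep thioredoxin and glutathione reduced, and detoxify quinones and heme. In the gut they are known for protecting the epithelium from luminal oxidants and drugs.

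RefSeq promoters (build GRCm38.p6, the 250 bases before the start the table gives, on the gene's strand) were read for 7 of the 10 genes, in 9 windows, and not for Gclc, Hmox1 and Gsr. Of those read, 3 with a match are shown, because NRF2 is known to act through an element with the letters TGACNNNGC or TGAGNNNGC, whose matches on either strand are in capitals. Srxn1 lies at chr2:152105524-152111376, Nfe2l2 at chr2:75675513-75704663 and Gclm at chr3:122245487-122267215. The windows are chr2:152105274-152105523 (plus strand) for Srxn1, chr2:75704664-75704913 (minus strand) for Nfe2l2 and chr3:122245307-122245556 (plus strand) for Gclm. The Gclm window ends past the first base of the gene's stated extent, so its bases are counted back from a later start.
Srxn1: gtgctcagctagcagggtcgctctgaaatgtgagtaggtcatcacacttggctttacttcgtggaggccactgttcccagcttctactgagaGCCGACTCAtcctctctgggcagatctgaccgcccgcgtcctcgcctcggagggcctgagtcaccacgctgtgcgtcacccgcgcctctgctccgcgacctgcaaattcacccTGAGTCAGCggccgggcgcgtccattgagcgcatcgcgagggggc
Nfe2l2: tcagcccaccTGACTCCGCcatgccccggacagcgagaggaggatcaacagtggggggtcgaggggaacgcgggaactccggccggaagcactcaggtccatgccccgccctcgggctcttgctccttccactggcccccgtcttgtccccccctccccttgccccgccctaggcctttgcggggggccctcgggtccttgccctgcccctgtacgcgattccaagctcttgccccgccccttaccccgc
Gclm: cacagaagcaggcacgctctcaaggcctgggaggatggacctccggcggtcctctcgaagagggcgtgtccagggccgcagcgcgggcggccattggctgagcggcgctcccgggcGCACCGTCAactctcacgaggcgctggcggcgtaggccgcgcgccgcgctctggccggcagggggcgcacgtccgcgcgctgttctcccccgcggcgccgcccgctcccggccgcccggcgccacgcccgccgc
The Srxn1 window held 2 matches, GCCGACTCA at bases 158 to 150 before the start (read on the other strand) and TGAGTCAGC at bases 45 to 37. The second of them overlaps the AP-1 letters TGAGTCA at bases 45 to 39, and these letters occur again at bases 102 to 96. Nfe2l2 held TGACTCCGC at bases 240 to 232, and Gclm held GCACCGTCA at bases 134 to 126 (read on the other strand). Nqo1 and Keap1 held no match in their windows. Of the 9 windows 5 held 1 form or the other, against 23.0% of all 32851 windows in the table. TGACNNNGC alone was in 10.2% of them, TGAGNNNGC in 14.4% and TGAGTCA in 4.46%. A match is a description of letters, not a site that was shown to bind.

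At 3 h the catalytic subunit of glutathione synthesis, Gclc, rose 1.72-fold against control colon, and it was the only one of the 9 genes that passed the test. By their brightest probe sets all 9 genes had a log2 change above 0 at 3 h, as did 45.9% of all genes. The largest were in Hmox1, Gclc and Srxn1, and the smallest in Keap1 and Gsr. A dimmer probe set of each of Keap1, Gsr and Txnrd1 lay below 0 (−0.24, −0.07 and −0.05). The other dimmer probe sets of the members lay above 0. At 12 h no member passed, and Gclc lay between its 3 h and control levels. The test was limma on log2(signal + 16) of all 11 arrays, 2-sided, with Benjamini-Hochberg adjustment over 18193 genes and a threshold of 0.05. Each gene is read from its brightest probe set unless another is named. Signals are linear array units, each array having been scaled by the authors to a common trimmed mean.

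Library facts touch every result below. Pancreatic acinar transcripts were high on 5 arrays, 3 h replicate 3, 12 h replicates 1, 3 and 4, and control replicate 1: the summed signal of the 9 measured of 11 markers ran over 2381 to 25010 at 3 h, 3041 to 67360 at 12 h and 2773 to 90120 in control. Of 6 Hox genes of the posterior clusters, markers of distal colon, 4 fell at 3 h against control by limma, where 1.11% of all genes fell. Hoxd11 and Hoxd12 overlapped between 3 h and control, and the brightest of the 6 was Hoxb13. The summed signal of all 6 was low on every 3 h array, 637.8 to 1075 at 3 h and 1472 to 1672 at 12 h, against 1457 to 1986 in control. Mesenteric fat markers (6 of 8 measured) summed to 1793 to 2512 at 3 h and 1395 to 2552 at 12 h, against 953.4 to 1392 in control. By limma 1 of these 6 rose at 3 h and 1 at 12 h against control, where 1.43% and 0.781% of all genes rose. Crypt and cycling markers (4 of 5 measured) summed to 542 to 925.8 at 3 h and 395.4 to 843.7 at 12 h, against 1001 to 1316 in control. By limma 1 of these 4 fell at 3 h and 2 at 12 h against control, where 1.11% and 0.835% of all genes fell. Fibroblast markers (6 of 6 measured) were low on every 12 h array, with sums of 6296 to 6961 at 12 h and 8708 to 9710 at 3 h, against 9270 to 12290 in control. Of these 6 genes 4 fell at 12 h against control by limma and 3 against 3 h, where 0.835% and 2.09% of all genes fell. Smooth muscle markers (6 of 6 measured) summed to 18450 to 26420 at 3 h and 12820 to 20030 at 12 h, against 18610 to 22580 in control. By limma 2 of these 6 fell at 12 h against 3 h, where 2.09% of all genes fell. The part of these cell types in the 12 h results was not tested. With the 5 pancreatic-high arrays left out, 1 array remains at 12 h, which is then assumed to vary like the other groups. Colonocyte markers (8 of 8 measured) overlapped between groups, with sums of 29740 to 37830 at 3 h, 30340 to 37300 at 12 h and 32780 to 37040 in control. In bulk tissue, fewer cells of a type and less RNA per cell cannot be told apart, and the stretch of colon sampled cannot be told apart from the 3 h treatment where Hox genes do not overlap.

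Gclc encodes the catalytic subunit of glutamate-cysteine ligase, the rate-limiting enzyme of glutathione synthesis. Its signal was 706.3, 700.1, 839.5 and 761.6 on the 3 h arrays, against 429.8, 453.8 and 425.3 on the control arrays. All 3 h arrays lay above all control arrays, and the control arrays stood close together. The means were 751.9 ± 64.6 at 3 h (SD, n = 4) and 436.3 ± 15.3 in control (SD, n = 3). The log2 change was 0.76 ± 0.15 (SE), with a 95% interval of 0.44 to 1.08 and a limma adjusted p of 0.0198. Among the 9 members 1 rose and none fell, where 1.43% of all genes tested rose and 1.11% fell. The dimmer Gclc probe set read 445.3, 447.1, 436.5 and 447.7 at 3 h, against 188.4, 269.3 and 305.0 in control, again without overlap, a log2 change of 0.79 ± 0.23 (SE) with a limma adjusted p of 0.132 over all probe sets.

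The size of the Gclc change was steady under leaving out 1 array (0.71 to 0.79 on the log2 scale), but its call was not. The limma adjusted p was 0.0857 without control replicate 1, 0.0692 without control replicate 2 and 0.0565 without control replicate 3. It was 0.0622 with 3 h replicate 3 left out and 0.0516 with 3 h replicate 4 left out. Without the 5 arrays high in pancreatic transcripts the change was 0.70 with a limma adjusted p of 0.0811. With the posterior Hox level as a covariate it was 0.48 (limma adjusted p = 0.936), and with the fat marker level 0.60 (limma adjusted p = 0.254), both chosen after seeing the data. The 3 h arrays did not overlap the control arrays in either covariate.

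At 12 h Gclc read 377.9, 573.7, 615.5 and 535.7. Replicate 1 fell below every control array and the other 3 lay above them. The mean was 525.7 ± 104 at 12 h (SD, n = 4) against the control mean above, a log2 change of 0.24 ± 0.15 (SE) at a limma adjusted p of 0.489. All 12 h arrays were lower than all 3 h arrays, and the log2 change of 12 h against 3 h was −0.52 ± 0.14 (SE; limma adjusted p = 0.0553). That value passed without 12 h replicate 3 (limma adjusted p = 0.0454), and under 4 other settings. The order of the means was thus 3 h, 12 h and control, in which neighbours did not differ by the adjusted test.

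**Figure D1:**
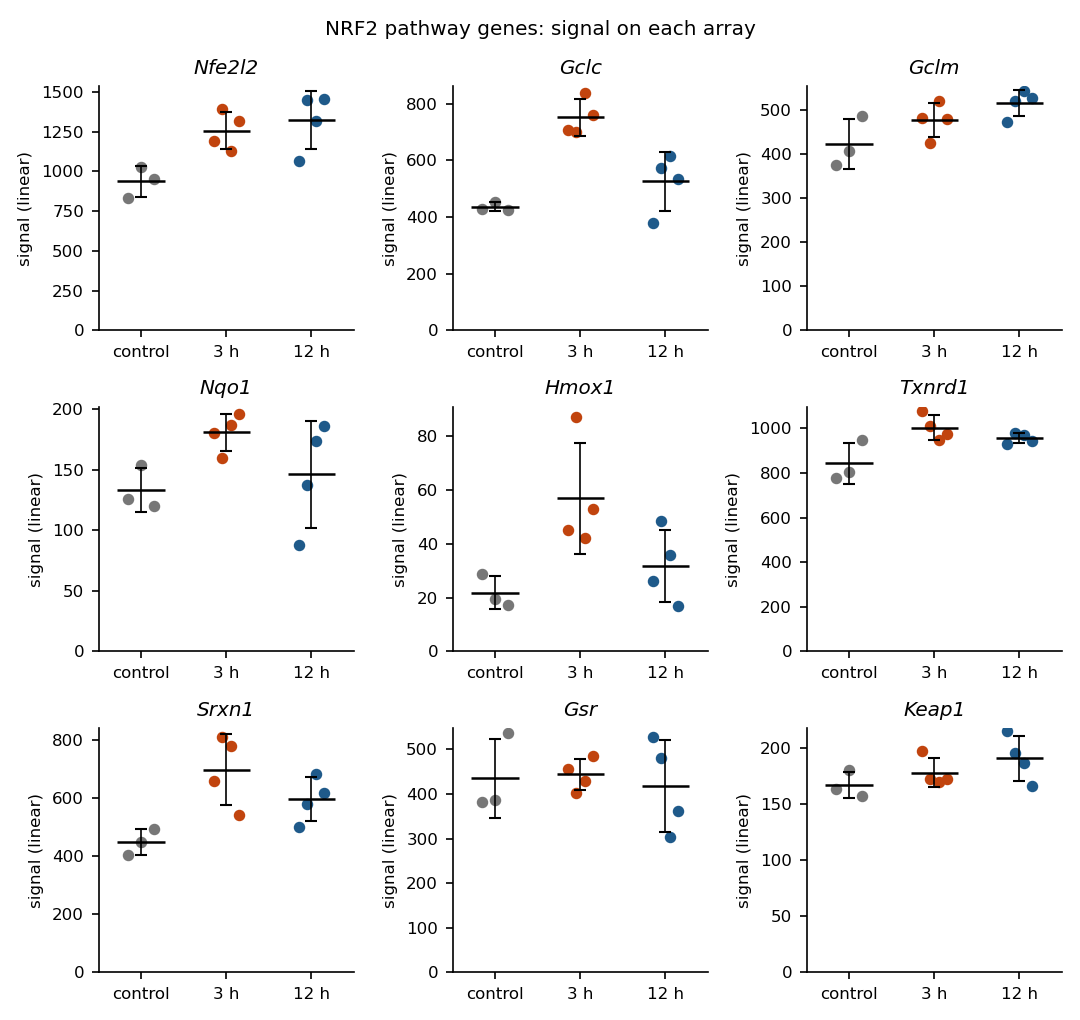
Linear signal of the brightest probe set of each of the 9 NRF2 pathway genes on every array (points) for control (n = 3), 3 h (n = 4) and 12 h (n = 4), with the mean (horizontal line) and SD (bars). Gclc sits at 700.1 to 839.5 at 3 h, above all control arrays (425.3 to 453.8), while Gsr and Keap1 overlap between the groups.

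Gclm encodes the modifier subunit that lowers the enzyme's need for substrate. It read 480.5, 425.0, 520.0 and 480.0 at 3 h, against 374.4, 406.0 and 485.2 in control. The groups overlapped, and the log2 change was 0.17 ± 0.11 (SE; limma adjusted p = 0.533). At 12 h it read 472.3, 520.4, 541.5 and 526.0, with only replicate 1 inside the control range, and the log2 change was 0.28 ± 0.11 (SE; limma adjusted p = 0.237). With the Hox level as a covariate the 3 h value turned to −0.09. The mean of this probe set was highest at 12 h, 515 ± 29.9 (SD, n = 4). The second Gclm probe set averaged 101.8 ± 19.9 at 3 h and 94.7 ± 21.3 at 12 h (SD, n = 4 each), against 84.83 ± 6.07 in control (SD, n = 3), so its highest mean was at 3 h. Its log2 change of 12 h against 3 h was −0.10 ± 0.16 (SE), where the brighter one had 0.11 ± 0.10, and the groups overlapped in both.

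Srxn1 encodes sulfiredoxin, which repairs over-oxidised peroxiredoxins. Its brightest probe set read 659.1, 810.4, 778.8 and 542.9 at 3 h, against 404.0, 447.3 and 492.0 in control. The 3 h arrays all lay above the control arrays, but the log2 change of 0.61 ± 0.15 (SE) did not pass (limma adjusted p = 0.0549). It passed without 3 h replicate 4 (0.72 on the log2 scale, limma adjusted p = 0.031), and without 12 h replicate 1 (limma adjusted p = 0.0475), since all arrays share the estimate of the spread. With the Hox level as a covariate it was 0.09.

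The second Srxn1 probe set read 337.7, 399.0, 402.8 and 318.1 at 3 h, against 176.9, 210.0 and 229.2 in control. It rose by 0.78 ± 0.14 on the log2 scale (SE; limma adjusted p = 0.0222 over all probe sets), a fit in which 0.838% of the 34945 probe sets rose. The 2 dimmest Srxn1 probe sets gave 0.34 ± 0.16 and 0.04 ± 0.19 (SE) at 3 h, so the 4 probe sets of the gene did not give 1 value. At 12 h the brightest read 500.7, 580.1, 682.8 and 616.6, all above control, a log2 change of 0.39 ± 0.15 (SE) at a limma adjusted p of 0.222. The third probe set was the highest at 12 h, with 142.5, 152.3, 115.4 and 130.5 at 12 h against 86.4, 53.5 and 102.6 in control, and its log2 change of 0.67 ± 0.16 (SE) had a limma adjusted p of 0.0859 over all probe sets. The promoter with 2 element matches shown above is that of this gene.

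Hmox1 encodes heme oxygenase-1, which opens the heme ring and is also controlled by BACH1. Its signal was dim: 45.1, 87.1, 42.2 and 52.8 at 3 h, against 28.7, 19.4 and 17.2 in control. No 3 h array was as low as any control array, and 3 h replicate 2 stood highest. The means were 56.8 ± 20.7 at 3 h (SD, n = 4) and 21.77 ± 6.1 in control (SD, n = 3), a ratio of 2.61. The log2 change was 0.92 ± 0.24 (SE), with a limma adjusted p of 0.0655 that was 0.0449 without 12 h replicate 4. At 12 h the gene read 26.2, 48.2, 35.8 and 17.0, overlapping control, with a log2 change of 0.31 ± 0.24 (SE) at a limma adjusted p of 0.603. In 12 h against 3 h its log2 change was −0.61 ± 0.22 (SE; limma adjusted p = 0.158). Macrophages, which carry much of the Hmox1 of many tissues, had markers (8 of 8 measured) summing to 2074 to 2745 at 3 h and 2142 to 2360 at 12 h, against 2504 to 3555 in control. By limma 1 of the 8 fell at 12 h against control, where 0.835% of all genes fell. Red blood cell markers (3 of 6 measured) summed to 7.7 to 44.3 at 3 h and 6.4 to 21.4 at 12 h, against 17.9 to 33 in control. The part of these cells in the Hmox1 values was not tested.

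Nqo1, the quinone reductase often used to read NRF2 activity, was 180.2, 159.9, 187.4 and 196.5 at 3 h, against 125.7, 154.2 and 120.5 in control. The arrays did not overlap, but 3 h replicate 2 and control replicate 2 were close. The log2 change of 0.40 ± 0.20 (SE) had a limma adjusted p of 0.371. With the fat marker level as a covariate this 3 h change was 0.07, with the Hox level 0.25 and with the pancreatic level 0.38. At 12 h the values were the most spread of the 3 groups, 87.7, 137.9, 174.2 and 186.3. They ran from below the lowest to above the highest control array, with a log2 change of 0.08 ± 0.20 (SE) at a limma adjusted p of 0.902. Its sign turned without 12 h replicate 3 (−0.01) or 4 (−0.04), and with the fat marker level as a covariate (−0.18). Replicate 1 of the 12 h group was the lowest of its group for Nqo1, Gclc, Gclm, Srxn1, Nfe2l2 and Txnrd1 alike. It was the highest of its group for Gsr and Keap1, and lay within the range of the others for Hmox1.

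Txnrd1 encodes cytosolic thioredoxin reductase, which keeps thioredoxin reduced. It read 1079.6, 1012.8, 948.0 and 975.8 at 3 h, against 776.5, 804.9 and 947.9 in control. The groups were separated by the narrowest margin of the members, with 948.0 as the lowest 3 h array and 947.9 as the highest control array. The log2 change was 0.25 ± 0.10 (SE; limma adjusted p = 0.228). At 12 h it read 929.8, 978.1, 968.7 and 945.0, a log2 change of 0.18 ± 0.10 (SE) at a limma adjusted p of 0.404. The other 2 Txnrd1 probe sets gave 0.17 ± 0.11 and −0.05 ± 0.19 (SE) at 3 h.

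Gsr encodes glutathione reductase, which returns oxidised glutathione to its reduced form. It read 455.9, 402.6, 430.1 and 485.9 at 3 h, and 526.8, 480.2, 303.5 and 361.1 at 12 h, against 382.5, 385.5 and 536.2 in control. The groups overlapped at both times, with log2 changes of 0.04 ± 0.18 at 3 h and −0.07 ± 0.18 at 12 h (SE; limma adjusted p = 0.954 and 0.912). The 95% intervals were −0.35 to 0.44 at 3 h and −0.47 to 0.33 at 12 h. The Gclc change of 0.76 at 3 h lay outside the 3 h interval, and the Gclc change of 0.24 at 12 h lay inside the 12 h interval. The sign of Gsr turned under several settings, listed with the other alternatives. The second Gsr probe set averaged 275.9 ± 24.5 at 3 h and 245 ± 44.9 at 12 h, against 290.4 ± 26.5 in control (SD). Its log2 changes were −0.07 ± 0.14 at 3 h and −0.24 ± 0.14 at 12 h (SE; limma adjusted p = 0.912 and 0.498 over all probe sets). The groups overlapped in this probe set too.

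The regulators of the pathway came next. Nfe2l2 itself read 1190.6, 1390.2, 1128.7 and 1313.6 at 3 h, and 1064.1, 1445.5, 1314.6 and 1457.1 at 12 h, against 830.8, 1027.7 and 950.3 in control. Arrays of both times lay above every control array. The means were 1256 ± 118 at 3 h and 1320 ± 183 at 12 h (SD, n = 4 each), against 936.3 ± 99.2 in control (SD, n = 3). The log2 changes of 0.42 ± 0.13 at 3 h and 0.48 ± 0.13 at 12 h (SE) did not pass (limma adjusted p = 0.134 and 0.0952). The 12 h value passed without 12 h replicate 1 (0.58, limma adjusted p = 0.042). A second, dim Nfe2l2 probe set, at 2.1 to 32.3 on the 11 arrays, gave 0.51 at 3 h and −0.26 at 12 h. RNA does not report the protein, whose breakdown is the main control of NRF2.

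Keap1 read 197.4, 172.1, 170.0 and 172.8 at 3 h, and 214.9, 195.9, 186.7 and 166.6 at 12 h, against 163.5, 180.1 and 157.6 in control. The groups overlapped, with log2 changes of 0.08 ± 0.11 at 3 h and 0.17 ± 0.11 at 12 h (SE; limma adjusted p = 0.799 and 0.476). Its second probe set went the other way at 3 h, with 104.5, 83.3, 91.6 and 87.3 at 3 h, all below 110.3, 109.4 and 113.1 in control. That log2 change was −0.24 ± 0.14 (SE; limma adjusted p = 0.54 over all probe sets).

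**Figure D2:**
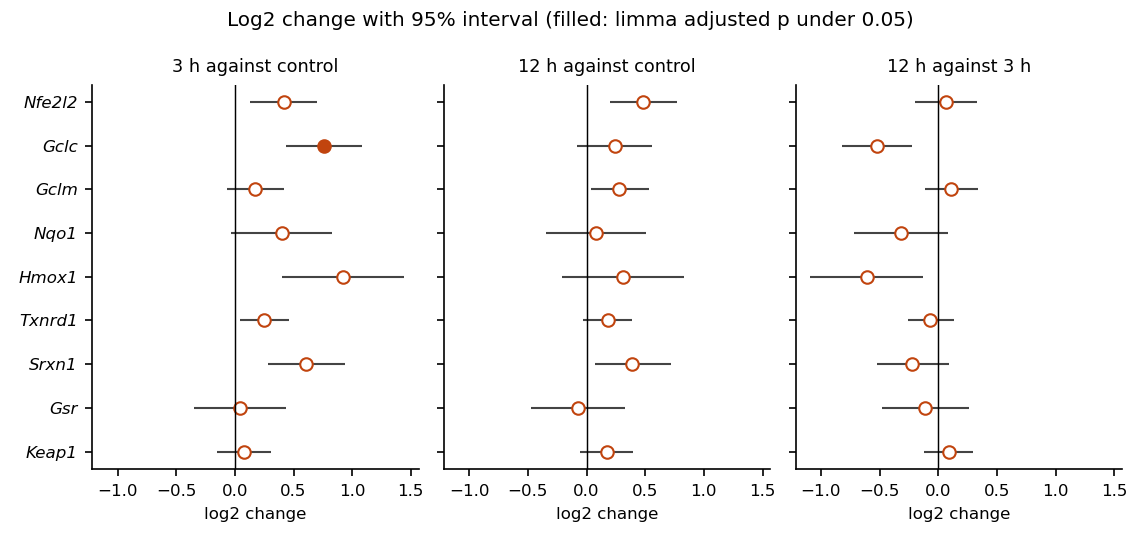
Log2 change (x axis) with 95% interval of the 9 genes for 3 h and 12 h, each against control, and for 12 h set against 3 h, with filled points where the limma adjusted p was under 0.05. The single filled point is Gclc at 3 h (0.76, interval 0.44 to 1.08).

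Over the 9 members the median log2 change was 0.40 at 3 h, against −0.02 over all genes tested. An unadjusted p under 0.05 was found for 5 of the 9 members and for 2728 of the 18193 genes. In 6 members every 3 h array was above every control array, a pattern found upward in 6.76% of all genes. At 12 h the median was 0.24, against −0.01 over all genes. No member was called, with an unadjusted p under 0.05 for 3 of the 9 members and 2876 of the 18193 genes, where 0.781% of all genes rose and 0.835% fell. Nfe2l2 and Srxn1 were the 2 members whose 12 h arrays all lay above control, as did 6.02% of all genes. Both comparisons use the same 3 control arrays.

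Between 12 h and 3 h the median over the members was −0.11, against 0.01 over all genes. No member was called, with an unadjusted p under 0.05 for 2 of the 9 members and 3227 of the 18193 genes, where 1.99% of all genes rose and 2.09% fell. Gclc was the 1 member with all 12 h arrays below all 3 h arrays, a pattern found in 5.26% of all genes. Hmox1, Nqo1 and Srxn1 had values of −0.61, −0.32 and −0.22, and the other 5 members lay within −0.11 to 0.11.

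**Figure D3:**
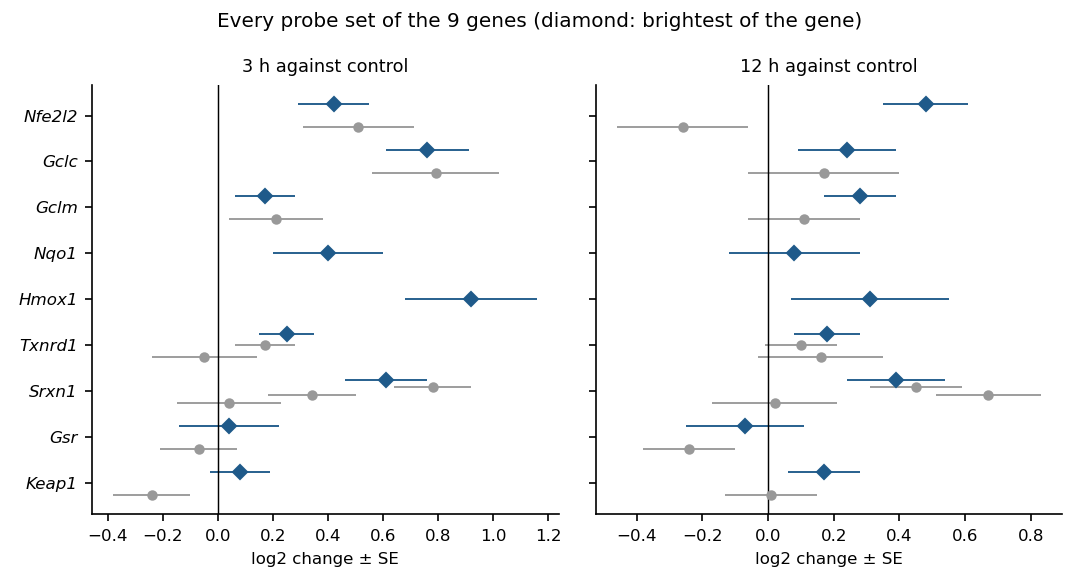
Log2 change with SE (x axis) of all 19 probe sets of the 9 genes, at 3 h and at 12 h relative to control; diamonds mark the brightest probe set of a gene and circles the others. Both Gclc probe sets lie near 0.8 at 3 h, whereas those of Srxn1 run over 0.04 to 0.78 and those of Keap1 stand on either side of 0.

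Across the 11 arrays the levels of Gclc went most with those of Nqo1 (Pearson r = 0.83) and Srxn1 (0.79) among the members, and Gsr and Nqo1 had the lowest value (−0.46). Among 8994 other genes of a mean signal of at least 50, those most like Gclc were Paqr8 (Pearson r = 0.956), Hoxb9 (0.927) and Ndrg1 (0.922). Their log2 changes were 0.65, 0.55 and 0.96 at 3 h, against 0.15, 0.21 and 0.32 at 12 h, each relative to control. Hoxb9 is not among the posterior Hox markers, whose sum was lower at 3 h. The part of colon region in its likeness to Gclc was not tested. These correlations describe arrays that share 3 groups, so they hold the group differences themselves.

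Of 34 other NRF2 targets 30 were measured, and 1 rose and none fell at 3 h, where 1.43% of all genes rose and 1.11% fell, with a median log2 change of 0.12. An unadjusted p under 0.05 was found there for 7 of the 30 genes and 2728 of all 18193. At 12 h and between 12 h and 3 h none was called by limma, with unadjusted p under 0.05 for 4 and 5 of the 30 genes, against 2876 and 3227 of all 18193, and medians of 0.01 and −0.07. The gene that rose was Trib3, a pseudokinase of the stress response that is also an ATF4 target. Its signal was 121.3, 42.9, 35.3 and 48.8 at 3 h, against 16.2, 15.7 and 18.5 in control, so that it rose by 1.14 ± 0.26 on the log2 scale (SE; limma adjusted p = 0.0428). The call ended without any 1 of 9 arrays, all except 3 h replicates 1 and 3 (limma adjusted p up to 0.147). Ugdh, which makes UDP-glucuronate, had a 3 h log2 change of 0.54 ± 0.15 (SE; limma adjusted p = 0.0807), which passed without 12 h replicate 1 (0.0371). At 12 h Osgin1, an oxidative stress growth inhibitor, had 0.77 ± 0.18 (SE; limma adjusted p = 0.0574), and Pgd, an NADPH-producing enzyme of the pentose phosphate pathway, had 0.37 ± 0.09 (SE; limma adjusted p = 0.0704).

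All 19 regulators and partners of NRF2 were measured, and at 3 h 2 rose and none fell, where 1.43% of all genes rose and 1.11% fell (median log2 change 0.18). Bach1, the repressor that competes with NRF2 at its elements, read 736.1, 708.1, 605.9 and 743.6 at 3 h, against 317, 408.4 and 471.8 in control. The log2 change was 0.80 ± 0.13 (SE; limma adjusted p = 0.00801), and all 3 h arrays were above all others. A dimmer Bach1 probe set gave 0.33 at 3 h. Maff, a small MAF partner, read 184, 183.2, 145 and 148.5 at 3 h, against 101.1, 79.4 and 97.2 in control, a log2 change of 0.74 ± 0.12 (SE) at a limma adjusted p of 0.00775. Both calls held when any 1 array was left out. They ended when the 5 arrays with high pancreatic transcripts were left out (0.71 and 0.85, limma adjusted p = 0.0868 and 0.0932), and with the Hox level (limma adjusted p = 0.843 and 0.524) or the fat marker level (0.0541 and 0.109) as a covariate.

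Both were lower at 12 h than at 3 h. Bach1 read 462.4, 508.3, 497.8 and 488.5 at 12 h and fell by 0.50 ± 0.12 against 3 h on the log2 scale (SE; limma adjusted p = 0.0398). That call ended without any 1 of 8 arrays, all except control replicates 1 and 3 and 3 h replicate 3 (limma adjusted p up to 0.11). It was also lost with an offset of 1 (limma adjusted p = 0.0844), the mean of all probe sets (0.111) and every probe set tested (0.0546). The replicate block (0.0872) and the pancreatic level as a covariate (0.176) ended it too. The dimmer Bach1 probe set gave −0.14 for 12 h against 3 h. Maff read 98.5, 107.3, 90.3 and 103.3 at 12 h and fell by 0.64 ± 0.11 against 3 h (SE; limma adjusted p = 0.00743). Bach2, a BACH1 relative best known in lymphocytes, read 38.1, 32.8, 28.9 and 40 at 12 h, against 80.1, 115.1 and 60.6 in control, and fell by 0.96 ± 0.17 (SE; limma adjusted p = 0.0199). That call was lost without control replicates 1 and 2 (limma adjusted p = 0.0748 and 0.0775) and without 12 h replicates 2 and 3 (0.0521 and 0.0572). It was also lost with the 5 pancreatic-high arrays left out (0.413), the fat level as a covariate (0.092), an offset of 1 (0.052), the mean of all probe sets (0.0628) and the arrays of the 2 groups alone (0.0742). Other Bach2 probe sets gave −0.66 and −0.06. Against 3 h Bach2 fell by 1.18 ± 0.16 at 12 h (SE; limma adjusted p = 0.00156). With the 5 pancreatic-high arrays left out no gene of the list was called for 12 h against 3 h: the limma adjusted p was 0.215 for Bach2, 0.328 for Maff and 0.312 for Bach1. With the Hox level as a covariate none was called there either. Over the list 1 fell at 12 h against control (median 0.00), where 0.835% of all genes fell, and 3 fell between 12 h and 3 h (median −0.09), where 2.09% of all genes fell, with none called higher. Btrc, a ligase subunit that also marks NRF2 for breakdown, had a 12 h log2 change of 0.37 ± 0.11 (SE; limma adjusted p = 0.116).

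**Figure D4:**
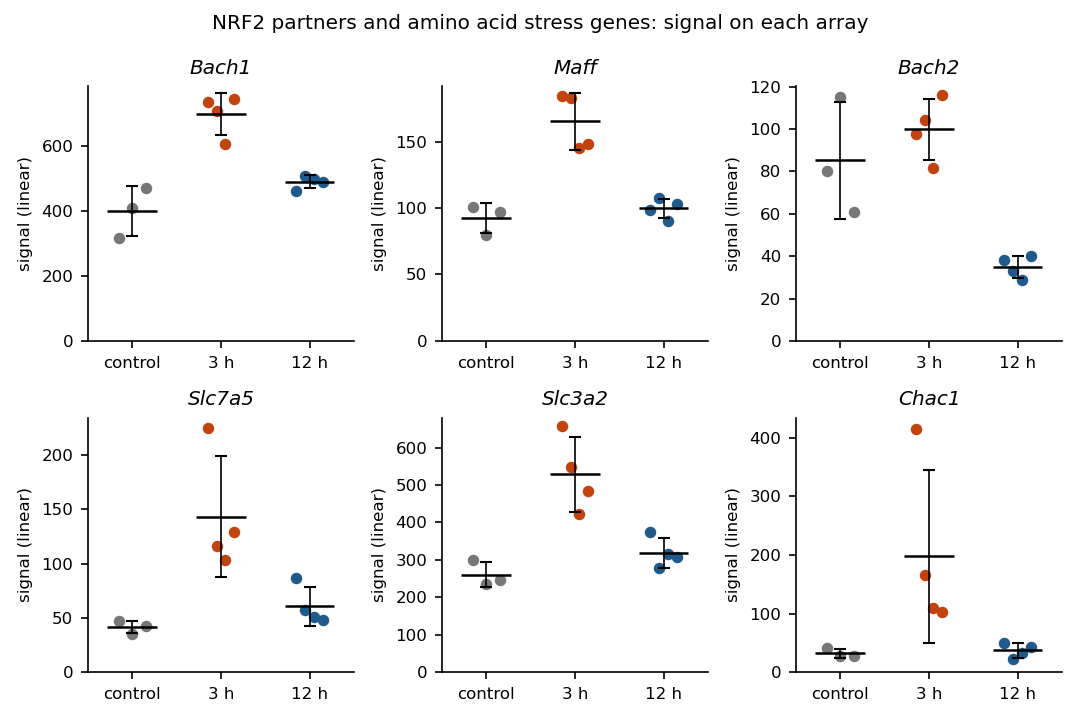
Linear signal on every array (points) of 3 NRF2 partner genes and 3 amino acid stress genes for control (n = 3), 3 h (n = 4) and 12 h (n = 4), with mean and SD. Bach1 and Maff are highest on the 3 h arrays, Bach2 is lowest on the 12 h arrays (28.9 to 40), and Chac1 reaches 414.7 on 3 h replicate 1.

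Of 19 antioxidant enzymes outside the NRF2 core 18 were measured, and none was called by limma in any comparison. Unadjusted p was under 0.05 for 0 of them at 3 h, 5 at 12 h and 6 between 12 h and 3 h, against 2728, 2876 and 3227 of all 18193 genes, and the medians were 0.03, −0.06 and −0.03. At 12 h mitochondrial superoxide dismutase, Sod2, read 1106.6, 973.9, 834.9 and 768, against 586.3, 611.4 and 698 in control, a log2 change of 0.52 ± 0.13 (SE) at a limma adjusted p of 0.0608, which passed without 12 h replicate 4 (0.0289). The glutaredoxin gene Glrx had 0.49 ± 0.15 at 12 h, and the mitochondrial transhydrogenase gene Nnt, which the C57BL/6J substrain carries in mutated form, had −0.37 ± 0.11 (SE; limma adjusted p = 0.128 and 0.13). Glrx2 had 0.27 ± 0.08 between 12 h and 3 h (SE; limma adjusted p = 0.0979).

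Genes of ATF4, the amino acid stress factor that supplies cysteine and glycine for glutathione, were measured in full, and at 3 h 6 of 15 rose and none fell, where 1.43% of all genes rose and 1.11% fell, with a median log2 change of 0.42. The transporter gene Slc7a5 read 225.2, 116.3, 103.3 and 129 at 3 h, against 47, 35.8 and 43.1 in control, a log2 change of 1.41 ± 0.23 (SE) at a limma adjusted p of 0.00784. Its partner subunit Slc3a2, which also pairs with the cystine carrier, rose by 0.96 ± 0.15, and the mitochondrial folate enzyme gene Mthfd2 by 1.33 ± 0.22 (SE; limma adjusted p = 0.00738 and 0.00928). The gene of the cystine carrier, Slc7a11, is in the list of other NRF2 targets and was named after its value was seen. It overlapped control at both times, with log2 changes of 0.13 ± 0.22 at 3 h and −0.26 ± 0.22 at 12 h (SE; limma adjusted p = 0.856 and 0.64). Chac1, whose enzyme breaks glutathione down, read 414.7, 166, 109.2 and 102.6 at 3 h, against 41.1, 27.7 and 28.6 in control, a log2 change of 1.94 ± 0.37 (SE) at a limma adjusted p of 0.0181. Replicate 1 of the 3 h group was the highest array for Slc7a5, Slc3a2, Mthfd2, Chac1 and Trib3. The other 2 of the 6 were Trib3 and Atf4 itself, the second named after its value was seen. Atf3, also named after its value was seen, had all 3 h arrays below control, with −1.03 ± 0.26 on the log2 scale (SE; limma adjusted p = 0.0574).

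Leaving out 1 array left 2 to 7 of the list called at 3 h. The count was 3 without control replicate 1, 2 without control replicate 2, and 3 without control replicate 3 or 3 h replicate 2. Chac1 was lost without any control array or 3 h replicate 2 (limma adjusted p up to 0.0794), and Mthfd2 without control replicate 2 (0.0537). Without the 5 arrays high in pancreatic transcripts 1 gene of the list was called, and with the Hox and fat levels as covariates 0 and 1. With the Hox level the estimates were larger (2.54 for Slc7a5, 1.71 for Slc3a2, 2.22 for Mthfd2 and 3.71 for Chac1).

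At 12 h none of the 15 was called against control, where only 0.781% of all genes rose and 0.835% fell. An unadjusted p under 0.05 was found there for 2 of the 15 and for 2876 of all 18193 genes. The list median was 0.22, against −0.01 over all genes. Between 12 h and 3 h 5 of the 15 fell and none rose, where 2.09% of all genes fell and 1.99% rose. The fifth was Atf4. The log2 changes were −1.33 ± 0.20 for Mthfd2, −1.02 ± 0.21 for Slc7a5, −0.69 ± 0.14 for Slc3a2 and −1.82 ± 0.34 for Chac1 (SE; limma adjusted p = 0.00375, 0.02, 0.0199 and 0.0121). The count was 3 without 3 h replicate 2, 2 without 12 h replicate 2 and 3 without 12 h replicate 3. Slc3a2 was lost without 3 h replicate 1 or 2 (limma adjusted p = 0.0546 and 0.0595) or 12 h replicate 2 (0.0629), and Slc7a5 without 12 h replicate 2 or 3 (0.057 and 0.0563). With the 5 pancreatic-high arrays left out none of the 15 was called (limma adjusted p = 0.244 for Mthfd2, 0.181 for Slc3a2, 0.296 for Slc7a5 and 0.266 for Chac1). With the pancreatic level as a covariate 1 was called, and with the Hox level 0.

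Of 13 genes of heme and iron handling 12 were measured, 1 rose at 3 h and 2 rose at 12 h, where 1.43% and 0.781% of all genes rose, with none falling and a median of 0.24 at both times. Hp, the hemoglobin-binding haptoglobin, read 90.7, 98.4, 132 and 101 at 3 h and 166.2, 147.9, 131.5 and 36.8 at 12 h, against 31.9, 16.6 and 26.6 in control. It rose by 1.57 ± 0.35 at 3 h and 1.61 ± 0.35 at 12 h (SE; limma adjusted p = 0.0358 and 0.0428). The 3 h call ended without any 1 of the 7 arrays of its groups, and the 12 h call without any 1 of 10 arrays, all except 12 h replicate 4 (limma adjusted p up to 0.137 and 0.166). Hp is made in fat as well as liver, and with the fat marker level as a covariate its changes were 2.13 and 2.04 (limma adjusted p = 0.0905 and 0.0556). Alas1, the first enzyme of heme synthesis, read 784.6, 787.7, 988.9 and 1049.1 at 12 h, against 429, 481.2 and 595.2 in control, and rose by 0.83 ± 0.14 (SE; limma adjusted p = 0.0164). That call was lost without control replicates 1 and 2 (limma adjusted p = 0.0772 and 0.0793) and 12 h replicate 3 (0.0507). Without the 5 arrays high in pancreatic transcripts it was 0.54 (limma adjusted p = 0.468), and with the fat level as a covariate 0.73 (0.0936). Against 3 h Alas1 rose by 0.77 ± 0.13 at 12 h (SE; limma adjusted p = 0.00654). It was the 1 gene of the list called there, where 1.99% of all genes rose and 2.09% fell, with a list median of −0.05. That call was lost with the 5 pancreatic-high arrays left out (limma adjusted p = 0.328) and with the Hox level as a covariate (0.416). Hmox2 and the biliverdin reductase gene Blvra had 0.37 ± 0.11 and −0.29 ± 0.10 there (SE; limma adjusted p = 0.0787 and 0.131).

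**Figure D5:**
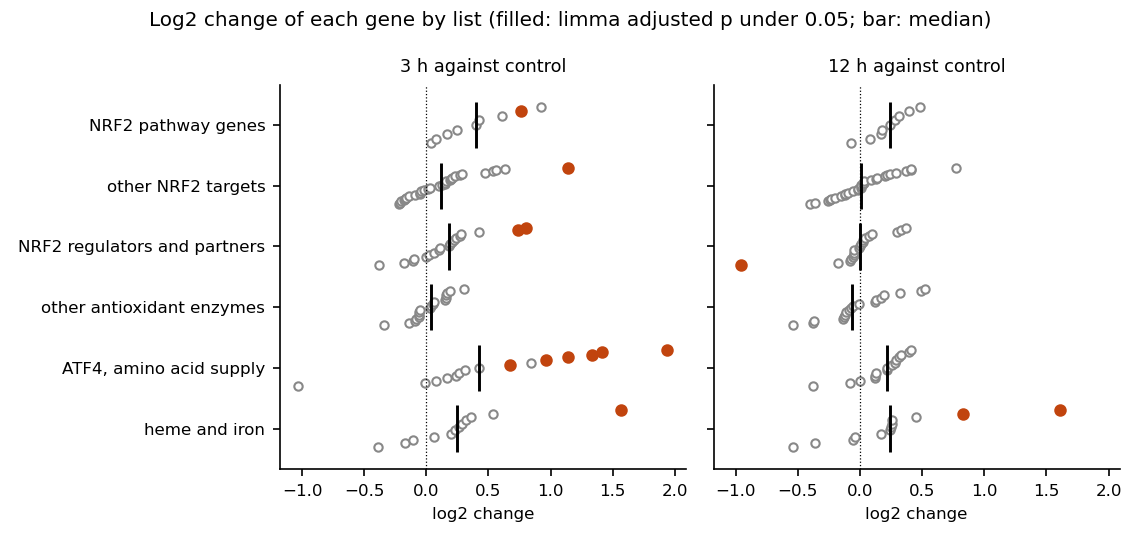
Log2 change (x axis) of each measured gene of the NRF2 pathway and of 5 further lists at 3 h and at 12 h relative to control, with a bar at the list median and filled points where the limma adjusted p was under 0.05. The NRF2 pathway median is 0.40 at 3 h and 0.24 at 12 h; the ATF4 list holds 6 filled points at 3 h and none at 12 h.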

How the data were processed

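Per the labels' protocols, total RNA of mouse colon was extracted with Trizol, biotin-labelled and hybridised, 1 array per sample. The authors deposited linear intensity values, 1 signal per probe set; what software summarised the probes is not given in the sources used here. A 2% trimmed mean was 100 on every array, so each had been scaled by a single factor. Of 45101 probe sets 64 were controls, 34945 had 1 symbol, 932 several and 9160 none. Symbols were updated to RefSeq by Entrez number, of which 99.4% matched. No 2 of 55 array pairs were identical, and median signals were 16.8 to 23.9. No detection calls were used, so dim probe sets may lie at background. The number of arrays limits the precision.

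The brightest probe set stood for each of 18193 genes. Values were log2(signal + 16), which understates changes of dim genes, and limma 3.58.1 (R 4.3.3) fitted all arrays together; Python 3.11.15 did the rest. Alternatives covered scaling, offset, level filter, probe sets, variance prior, array weights, the arrays fitted, a replicate block, threshold, leaving out arrays, and pancreatic, Hox and fat marker levels (these last chosen after seeing the data). The fit was tested on simulated data. The members, gene lists and marker lists were chosen with earlier results of these data known. All members were described; from each list up to 4 genes with the smallest unadjusted limma p over the 3 comparisons were named, and the 3 genes most like each called member.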

Additional observations from a re-analysis of the deposited data

Results flagged for a closer look

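Replicate 1 of the 3 h group stood apart from its group for Keap1, at 197.4 against 170.0 to 172.8 on the other 3 arrays. It was 1 of 18 groups of 4 arrays examined, where chance gives about 1 in 20.

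Genes named from the lists differed between the 2 treatment times by the test of 12 h against 3 h itself (limma adjusted p under 0.05), 8 in all. On the log2 scale the changes of 12 h against 3 h were −1.18 for Bach2, −0.64 for Maff and −0.50 for Bach1 among the NRF2 regulators. They were −1.33 for Mthfd2, −0.69 for Slc3a2, −1.02 for Slc7a5 and −1.82 for Chac1 among the ATF4 genes, and 0.77 for Alas1. With the posterior Hox level as a covariate none of the 8 passed (−1.42, −0.88, −0.39, −2.12, −1.35, −2.03, −3.39 and 0.91 in the same order). The 12 h and 3 h arrays do not overlap in that level, so region and time cannot be told apart.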

How the results depend on the processing

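The number of members called at 3 h, 1 in the fit reported, was 2 with equal medians, an offset of 64, an intensity trend or the mean of all probe sets, and 3 with a filter at a mean signal of 32. It was 0 with an offset of 1 (Gclc 0.78, adjusted p = 0.0555), an adjusted p under 0.01, without the 5 arrays high in pancreatic transcripts, and with the Hox or fat level as a covariate. It was 1 with the replicate block, whose counts over all genes were 278 at 3 h, 182 at 12 h and 467 for 12 h against 3 h. The gene gained with equal medians, an offset of 64, the trend or the mean of probe sets was Srxn1 (limma adjusted p = 0.0489, 0.0409, 0.0327 and 0.0351). The filter added Srxn1 (0.0271) and Hmox1 (0.0332), fewer genes being tested. Leaving out 1 array gave 0 to 2 members at 3 h, 0 to 1 at 12 h and 0 to 1 for 12 h against 3 h. At 12 h the filter gave 1 (Nfe2l2, adjusted p = 0.0482). For 12 h against 3 h, array weights, the trend, the filter and an offset of 64 gave 1, Gclc (adjusted p = 0.0460, 0.0325, 0.0270 and 0.0363).

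All genes called were 463 at 3 h, 294 at 12 h and 742 for 12 h against 3 h. In that order an offset of 1 gave 228, 80 and 437, the filter 704, 570 and 1069, an adjusted p under 0.01 127, 53 and 236, and the 5 arrays left out 80, 8 and 16. The Hox covariate gave 3, 204 and 10, the fat covariate 106, 123 and 690, and the pancreatic covariate 340, 183 and 345. An offset of 64 gave 492 and fitting 2 groups alone 60 at 12 h. Leaving out 1 array gave 161 to 520, 63 to 449 and 391 to 755. Under equal medians 289 rose and 147 fell at 3 h, against 261 and 202 in the fit reported, and 164 and 115 at 12 h, against 142 and 152.

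Directions turned with the mean of all probe sets for Gsr (−0.01) and Keap1 (−0.08) at 3 h, Btrc (−0.11) and Nnt (0.06) at 12 h, and Nfe2l2 (−0.35) and Txnrd1 (0.02) for 12 h against 3 h. Gsr turned without the 5 arrays (−0.02, 0.08 and 0.10 in the 3 comparisons), with the pancreatic covariate at 3 h (0.00) and with the fat covariate at 12 h (0.29), where Nqo1 turned too (−0.18). The Hox covariate turned Gclm at 3 h (−0.09), and Srxn1 (0.25) and Keap1 (−0.11) for 12 h against 3 h. Leaving out 1 array, Gsr ran from −0.04 to 0.20 at 3 h, −0.19 to 0.09 at 12 h and −0.23 to 0.02 for 12 h against 3 h, and Nqo1 from −0.04 to 0.28 at 12 h. The cause was not tested. Of 432 member values under the other alternatives 403 kept direction and side of the threshold, and of 297 with 1 array left out 279. In the fit reported only Gclc at 3 h was called, so nearly all of these were uncalled values that stayed uncalled. The Gclc call itself was lost when any 1 of 5 arrays was left out.

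Replicate numbers were not used as pairs in the fit reported. The deviations of 10 same-numbered pairs correlated at −0.38 to 0.54, 4 above 0.1. They were not compared with pairs of unlike number, so they do not settle whether the arrays are paired. Leaving out arrays more than 1 (log2) above the lowest in pancreatic markers left 1 array and was not run. Dim probe sets (Hmox1, the second of Nfe2l2) limit precision, and the Hox level cannot be told apart from the 3 h group. The fat level set the 3 h group apart from control alone. Its sums at 12 h (1395 to 2552) spanned those at 3 h (1793 to 2512).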
